A study of Mus musculus with 4 samples.

Results

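The genes described here encode the inhibitors of cyclin-dependent kinases (CDKs), which are the 3 CIP/KIP genes Cdkn1a, Cdkn1b and Cdkn1c and the 4 INK4 genes Cdkn2a, Cdkn2b, Cdkn2c and Cdkn2d. They were chosen as the probes outside controls whose gene name on the array is one of these symbols, which gave 7 probes for 6 of the genes. Cdkn1a has no probe under its symbol. Its 1 probe carries a clone name on the array and was matched to Cdkn1a through the RefSeq transcript accession that the scanner files list beside it. All 7 genes of 36096 gene or transcript names on the array were thus measured, by 8 of 41174 probes, with 2 probes for Cdkn1b and 1 for each other gene. All 8 probes passed the filter on dim probes, which asked for a signal well above background in at least 1 colour on at least 2 arrays and which 37174 probes passed.

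The RNA came from mammary tumours under 1 cm, at stage T1, in 4 FVB/N females that were 26 weeks old. The mice numbered 1868 and 1869 carried an MMTV-cdc25a and an MMTV-neu transgene (Cdc25a;neu), and those numbered 5 and 6 carried MMTV-neu alone (neu). Both transgenes are under the promoter of the mouse mammary tumour virus, which is active mainly in mammary epithelium, so every tumour arose under the neu oncogene and no tumour-free tissue was compared. Mouse 1868 was hybridised with mouse 5 (pair 1) and mouse 1869 with mouse 6 (pair 2) on 2-colour Agilent oligonucleotide arrays, each pair 2 times with the Cy5 and Cy3 dyes swapped.

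CDK inhibitors are small proteins that hold back the cell cycle by binding CDKs or CDK-cyclin complexes. The CIP/KIP proteins bind complexes of CDK2 and also those of CDK4 and CDK6 with D cyclins, while the INK4 proteins bind CDK4 and CDK6 alone and keep D cyclins from joining them. CDC25A acts on the same kinases from the other side, since this phosphatase removes the inhibitory phosphates from CDK2 and CDK1 and so turns them on. In mammary tumours driven by neu, the rat form of the receptor ERBB2, D-type cyclins and CDK4 are known to be needed for tumour growth.

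The start regions of Cdkn1a, Cdkn2a and Cdkn2b are printed first, because these genes had the 3 highest mean ratios and because Cdkn2a makes 2 unrelated proteins from 2 starts. Each is the RefSeq promoter window of the mouse assembly GRCm38.p6, from 250 bases before to 50 bases after a start, written 5′ to 3′ on the strand of the gene. Capitals mark a GC box (GGGCGG) or a CCAAT box (CCAAT), searched on both strands, where CCAAT on the other strand reads ATTGG. The arrays' files name no genome build, so these windows serve as annotation only. The Cdkn1a window lies at chr17:29093519-29093818 on the plus strand. The Cdkn2a windows lie on the minus strand at chr4:89294570-89294869 and chr4:89282143-89282442. The Cdkn2b window is on the minus strand at chr4:89310983-89311282.
Cdkn1a: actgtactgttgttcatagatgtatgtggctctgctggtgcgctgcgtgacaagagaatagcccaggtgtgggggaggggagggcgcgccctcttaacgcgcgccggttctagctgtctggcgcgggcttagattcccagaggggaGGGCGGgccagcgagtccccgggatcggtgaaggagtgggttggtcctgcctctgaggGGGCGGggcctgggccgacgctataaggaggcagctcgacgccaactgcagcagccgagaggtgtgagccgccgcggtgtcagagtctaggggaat
Cdkn2a, upstream start: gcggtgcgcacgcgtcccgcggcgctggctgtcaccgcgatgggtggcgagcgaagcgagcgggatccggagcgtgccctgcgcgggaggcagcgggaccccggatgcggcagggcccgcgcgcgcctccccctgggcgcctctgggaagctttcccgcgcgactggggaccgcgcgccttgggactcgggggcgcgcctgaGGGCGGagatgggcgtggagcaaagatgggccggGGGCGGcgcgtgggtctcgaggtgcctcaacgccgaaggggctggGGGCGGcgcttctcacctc
Cdkn2a, downstream start: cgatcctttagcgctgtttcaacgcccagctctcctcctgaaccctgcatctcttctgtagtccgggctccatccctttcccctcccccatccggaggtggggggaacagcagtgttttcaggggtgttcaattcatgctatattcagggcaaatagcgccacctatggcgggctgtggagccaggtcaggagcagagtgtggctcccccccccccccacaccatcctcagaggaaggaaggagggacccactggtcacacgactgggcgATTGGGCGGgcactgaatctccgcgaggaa
Cdkn2b: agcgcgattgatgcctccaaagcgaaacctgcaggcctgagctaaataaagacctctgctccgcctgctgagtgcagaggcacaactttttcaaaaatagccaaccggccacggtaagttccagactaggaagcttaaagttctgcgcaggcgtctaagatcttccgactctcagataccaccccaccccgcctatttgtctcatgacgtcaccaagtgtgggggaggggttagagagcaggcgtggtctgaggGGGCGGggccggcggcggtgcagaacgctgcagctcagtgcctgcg
The Cdkn1a window held 2 GC boxes, the upstream Cdkn2a window 3, the downstream Cdkn2a window 1 and the Cdkn2b window 1. In the downstream Cdkn2a window the GC box overlaps a CCAAT box in the run ATTGGGCGG. Of 32851 promoter windows of the same length, 35.7% held a GC box and 37.4% a CCAAT box. A TATA box (TATAAA), an E-box (CACGTG) and an E2F site (TTTCGCGC), which 13.6%, 7.15% and 0.323% of windows held, were also searched on both strands, and none was in the printed windows. The upstream Cdkn2a start belongs to the transcript for p19Arf, which protects p53 from Mdm2, and the downstream start to that for p16Ink4a, which binds CDK4 and CDK6. A second annotated Cdkn1a window, at chr17:29090729-29091028 on the plus strand, held neither motif. RefSeq windows were found for 6 of the 7 genes, all but Cdkn1c.

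Each array had 41534 spots, of which 78.5% to 92.2% exceeded the scanner's background limit in green and 82.7% to 87.9% in red. The 2 dye-swapped arrays of a pair carry the same RNA extracts and were averaged, so that the mouse pair was the replicate (n = 2). Across probes, which are not independent replicates, the turned ratios of the 2 swapped arrays had r = 0.643 in pair 1 and r = 0.754 in pair 2, and the means of the pairs had r = 0.340. The 2 probes for Cdc25a had log2 ratios of 0.05 and 0.11, with mixed signs over the 4 arrays. Neither the labels nor the files say which species or part of Cdc25a the transgene holds, so these probes do not check the genotype labels. In limma's test of the mean of the 2 pair ratios against 0, with Benjamini-Hochberg adjustment, 0 of 37174 probes (0%) reached an adjusted p under 0.05, the smallest adjusted value being 0.245. Without adjustment 3505 probes (9.43%) had a p under 0.05, of which 1389 were higher and 2116 lower in the Cdc25a;neu tumours. Median centring of each array in place of loess called 1109 probes, and a fit of the 4 arrays with the pair as a random block called 950. The p-values and intervals rest on the spread between 2 pairs of mice, which limma draws towards a spread estimated over all kept probes. They do not follow from a probe's own spread alone. With 2 pairs the precision of every value below is limited.

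Among the 8 CDK inhibitor probes, 0 reached an adjusted p under 0.05 and 1, for Cdkn1c, had an unadjusted p under 0.05 with a lower ratio, against 9.43% of all kept probes in either direction, 3.74% with a higher and 5.69% with a lower ratio. The Cdkn1c ratio was below 0 on all 4 arrays, as for 12.6% of all kept probes, and the Cdkn1a ratio was above 0 on all 4, as for 14.2%. The other 6 probes had mixed signs, so 2 of 8 had 1 sign throughout, against 26.7% of all kept probes. On the log2 scale the mean ratios over the brightest probe of each gene ran from -0.52 for Cdkn1c to 0.45 for Cdkn1a, with a median of 0.14. That median was -0.05 in pair 1 and 0.32 in pair 2. Of the 7 genes, 4 had opposite signs in the 2 pairs, against 40.3% of all kept probes. The plot of the 4 array ratios shows these values for each probe.

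**Figure D1:**
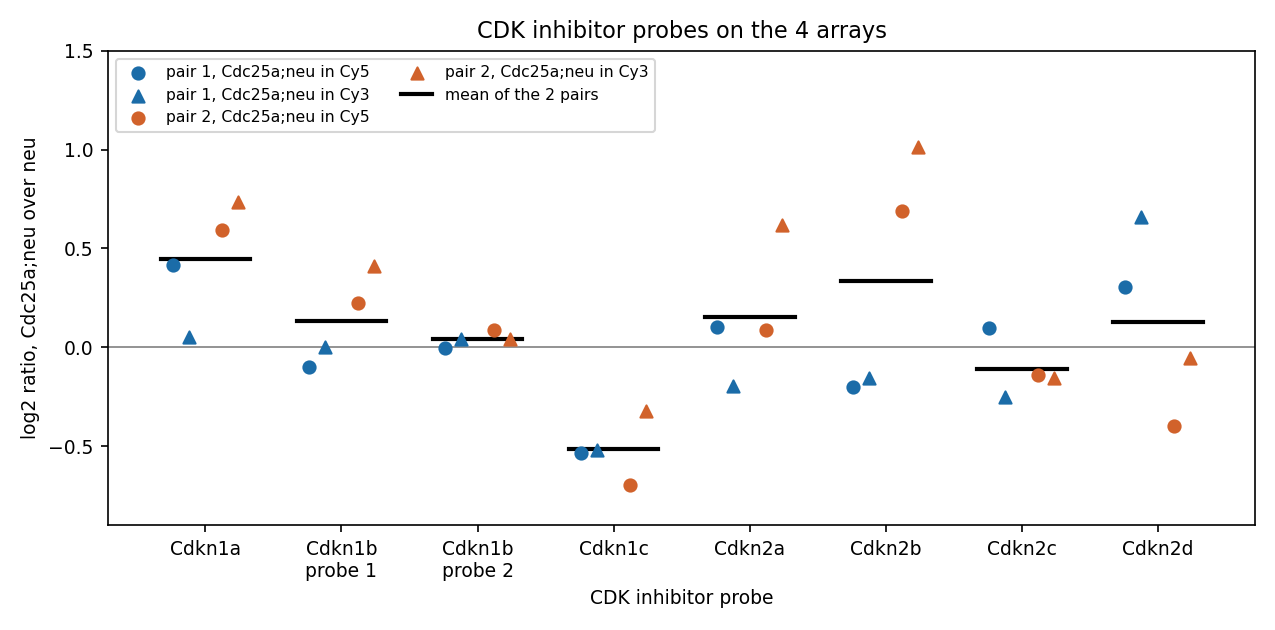
Log2 ratio (y axis) of each CDK inhibitor probe (x axis) on the 4 arrays, turned to Cdc25a;neu over neu. Colours give the mouse pair, marker shapes the dye of the Cdc25a;neu tumour, and bars the mean of the 2 pairs. Cdkn1c lies between -0.69 and -0.32 on all 4 arrays and Cdkn1a between 0.05 and 0.73, while the 2 pairs of Cdkn2b and of Cdkn2d lie on opposite sides of 0.

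Cdkn1c (p57Kip2) is an imprinted CIP/KIP inhibitor that binds G1 CDK complexes and marks tissues leaving the cell cycle. Its probe, A_51_P339540, had log2 ratios of -0.53 and -0.52 on the swapped arrays of pair 1 (here and below, the array with Cdc25a;neu in Cy5 comes first). In pair 2 they were -0.69 with the Cdc25a;neu tumour in Cy5 and -0.32 with it in Cy3. The log2 signal, which is each tumour's own signal after both normalizations, was 6.41 and 6.72 in the Cdc25a;neu tumours 1868 and 1869, against 6.94 and 7.23 in the neu tumours 5 and 6. Tumours of the 2 pairs shared no array, so comparing these signals across pairs, here and below, cannot tell tumours from arrays. Over kept probes, the difference between tumours 1868 and 1869 and that between tumours 5 and 6 had r = 0.643. Both Cdc25a;neu tumours lay below both neu tumours, as for 11.3% of all kept probes, while 8.41% had both above. The mean log2 ratio was -0.52 ± 0.01 (SD, n = 2 pairs), or 1.43-fold lower, with a 95% confidence interval from -0.67 to -0.37. Its unadjusted p was 0.00213 and its adjusted p 0.453 in limma's test. Of all kept probes, 2.80% had a mean ratio of at least this size.

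The call for Cdkn1c depended on the processing. With median centring the ratio was -0.50 with an adjusted p of 0.0442 in limma, and in a fit that took the pair as a random block it was -0.52 with an adjusted p of 0.0257 in limma. In that fit the repeat hybridisations of 1 extract enter as separate arrays. The probe was dim, at 29.2 to 99.3 intensity units over the local background. An offset of 50 is added to both colours before logarithms, which by arithmetic draws a ratio towards 0. With the scanner's own log ratio, which has no such offset, the mean was -1.13 and the pair ratios -1.38 and -0.87, which is 2.19-fold lower, with a limma adjusted p of 0.547. The authors' deposited table gave -1.21, or 2.31-fold lower, with -1.54 in pair 1 and -0.87 in pair 2. With no background correction the mean was -0.47. All 4 arrays were below 0 under each of these settings, while the mean ranged from -1.21 to -0.47, and what sets its size was not tested.

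The share of cells of each type in the tumours was not measured, and in bulk tissue fewer cells of a type and less RNA per cell cannot be told apart. Adipocyte genes had lower values in the Cdc25a;neu tumours, as Cdkn1c did. Of 12 adipocyte genes, 7 were lower on all 4 arrays and 1 was higher, against 12.4% and 14.7% of measured genes. Their median log2 ratio was -0.54. At an unadjusted p under 0.05 in limma, 6 were lower and 1 was higher, with 0 at an adjusted p under 0.05. Of 32658 measured genes, 1879 were lower and 1282 higher at an unadjusted p under 0.05 in limma. The log2 of their mean signal was 8.78 and 8.89 in the Cdc25a;neu tumours, against 9.86 and 10.88 in the neu tumours. The defining markers Adipoq, at -1.91, and Fabp4, at -2.71, were both lower on all 4 arrays. Skeletal muscle genes, 6 of the 7 measured having a value in every tumour, stood at 6.83 and 6.87 in the Cdc25a;neu tumours, against 6.80 and 8.40 in the neu tumours, and thus differed in pair 2. Luminal epithelial genes stood at 12.40 and 12.41 in the Cdc25a;neu tumours, against 12.42 and 12.58 in the neu tumours. Such a mean signal weighs the brightest genes most, here Krt18 and Krt8. Of these 10 luminal genes 1 was higher and 2 were lower on all 4 arrays, against 14.7% and 12.4% of measured genes. Their median log2 ratio was -0.09. Krt8 was the higher one at 0.15, and Epcam at -0.34 and Krt18 at -0.16 were the lower ones. Another 5 of the 10 had opposite signs in the 2 pairs, against 40.3% of all kept probes. Among them Gata3 had 0.23 in pair 1 and -1.07 in pair 2, and Cldn4 0.33 in pair 1 and -0.70 in pair 2. The part of these cell types in the Cdkn1c values was not tested.

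Cdkn1c lies in an imprinted domain on chromosome 7 in which several genes are expressed from the maternal copy and Igf2 and Kcnq1ot1 from the paternal copy. Of 10 genes listed for the domain, 1 was higher and 2 were lower on all 4 arrays, against 14.7% and 12.4% of 32658 measured genes. The median of the 10 log2 ratios was 0.00, and 0 had an adjusted p under 0.05. Ascl2, a transcription factor of the placenta and of stem cells, was higher on all 4 arrays at 0.38 ± 0.17. Slc22a18 had a ratio of -0.34 ± 0.29 with mixed signs, and its other probe 0.00. Phlda2, which restrains placental growth, was at -0.26 ± 0.15, lower on all 4 arrays and lower on its other probe (-0.45). Cd81 was at -0.21 ± 0.07 (SD, n = 2 pairs, throughout). Of the 3 measured genes on each side of Cdkn1c, Trpm5, Kcnq1, Kcnq1ot1 and Nap1l4 had ratios between -0.01 and 0.06, and the other two were Slc22a18 and Phlda2.

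Cdkn1a (p21Cip1) is the CIP/KIP inhibitor induced by p53 after DNA damage and by other signals. Its probe, A_51_P363947, had log2 ratios of 0.41 and 0.05 on the arrays of pair 1 and 0.59 and 0.73 on those of pair 2. The log2 signal was 6.77 and 7.45 in Cdc25a;neu tumours 1868 and 1869, against 6.54 and 6.78 in neu tumours 5 and 6. Tumour 1869 stood apart above the rest, and tumour 1868 lay just under neu tumour 6, so that the genotypes overlapped. The mean log2 ratio was 0.45 ± 0.30 (SD, n = 2 pairs), or 1.36-fold higher, with a 95% interval from -0.02 to 0.91. The unadjusted p was 0.054 and the adjusted p 0.535 in limma's test. With median centring the ratio was 0.54 with a limma adjusted p of 0.0207. The scanner's log ratio gave 0.84, or 1.80-fold, with 0.57 in pair 1 and 1.12 in pair 2, and the authors' deposited table gave 0.82.

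The tumour suppressor p53 is the best known activator of Cdkn1a, and other genes it activates were looked at beside it. Of 18 measured p53 target genes other than Cdkn1a, 3 were higher and 5 lower on all 4 arrays, against 14.7% and 12.4% of measured genes. Their median log2 ratio was -0.01, with 0 at an adjusted p under 0.05 in limma. The p53 gene itself, Trp53, had ratios of -0.28 in pair 1 and 0.49 in pair 2. Mdm2, which is a p53 target and marks p53 for breakdown, had -0.18 in pair 1 and 0.04 in pair 2, and its other probe averaged 0.04. Tnfrsf10b, a death receptor gene, had the highest ratio of the list, 1.34, on its brightest probe. Its other probes were between -0.11 and 0.06, and at least 10 other genes had ratios within 0.25 of it on every array. Trp53inp1 at -0.69, the kinase gene Plk2 at -0.46 and the apoptosis gene Pmaip1 at -0.34 were lower on all 4 arrays.

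Cdkn1b (p27Kip1), the CIP/KIP inhibitor that holds CDK2 inactive in resting cells, had 2 probes. On the brighter, A_51_P169173, the log2 ratios were -0.10 and 0.00 on the arrays of pair 1. On those of pair 2 they were 0.23 and 0.41. The log2 signals were 6.58 and 6.77 in Cdc25a;neu tumours 1868 and 1869, against 6.63 and 6.45 in neu tumours 5 and 6. Pair 1 lay near 0 and pair 2 above it, and the genotypes overlapped, with a mean of 0.14 ± 0.26 (SD, n = 2 pairs) and an adjusted p of 0.752 in limma. The mean was 0.27 with the scanner's log ratio and 0.35 in the authors' deposited table, and without the pair 2 array that had Cdc25a;neu in Cy3 it was 0.09.

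The second Cdkn1b probe, A_52_P673863, had log2 ratios between -0.00 and 0.09 on the 4 arrays, with log2 signals of 6.48 and 6.29 in the Cdc25a;neu tumours, against 6.46 and 6.22 in the neu tumours. Its mean was 0.04 ± 0.03 (SD, n = 2 pairs), with an adjusted p of 0.794 in limma. The mean was -0.08 with median centring and -0.09 in the authors' deposited table, which holds no value for it on 1 array, so its direction turned with the processing. The probes differed in pair 2, at 0.32 on the brighter and 0.07 on the dimmer, and neither showed a ratio beyond the spread between pairs that passed the test.

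Levels of p27Kip1 and p21Cip1 protein are set largely by breakdown, which this assay does not measure. Of 10 measured genes for the ubiquitin ligases and related factors that remove them, 3 were higher and 1 was lower on all 4 arrays. The shares of all measured genes were 14.7% and 12.4%, and 0 of the 10 had an adjusted p under 0.05 in limma. Cks1b, the cofactor that lets the SKP2 ligase take hold of p27Kip1, had log2 ratios of 0.44, 0.65, 0.49 and 0.63 on the 4 arrays, a mean of 0.55 ± 0.01 (SD, n = 2 pairs) and an adjusted p of 0.453 in limma. Its relative Cks2 was at 0.45 ± 0.23, with 0.38 on its other probe, and higher on all 4 arrays. Skp2 itself was at -0.01, with -0.07 on its other probe. Cul4a, a scaffold of the ligase for p21Cip1, was at -0.27, and Cops5, which regulates cullin ligases, at 0.21 with mixed signs.

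The INK4 genes Cdkn2a and Cdkn2b lie side by side on chromosome 4 and are both known to be silenced by Polycomb proteins. Cdkn2b (p15Ink4b) is best known as a target of TGF-beta signalling. Its probe, A_52_P498241, had log2 ratios of -0.20 and -0.16 on the arrays of pair 1. On those of pair 2 they were 0.69 and 1.01. The log2 signal was 6.51 and 7.71 in Cdc25a;neu tumours 1868 and 1869, against 6.69 and 6.85 in neu tumours 5 and 6. The 2 Cdc25a;neu tumours were thus the lowest and the highest of the 4, with both neu tumours between them. The mean was 0.34 ± 0.73 (SD, n = 2 pairs), with an adjusted p of 0.763 in limma. The scanner's log ratio set the pairs further apart, at -0.56 and 1.32.

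**Figure D2:**
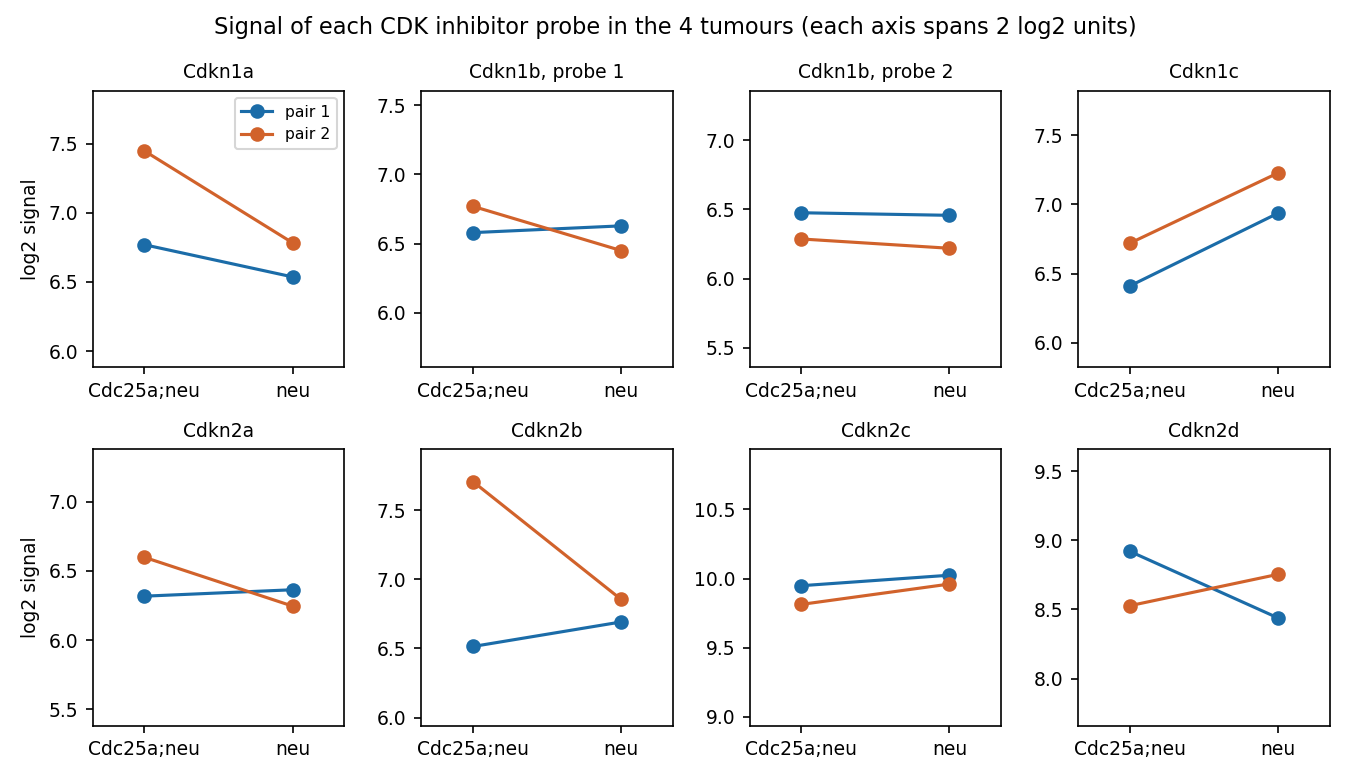
Log2 signal (y axis) of each CDK inhibitor probe in the Cdc25a;neu tumours and the neu tumours (x axis). Each panel is 1 probe with an axis of 2 log2 units, and lines join the tumours of a pair. Tumours of different pairs were on different arrays. Both Cdc25a;neu tumours lie below both neu tumours for Cdkn1c, and for Cdkn2b tumour 1869 (pair 2) stands at 7.71 above the other 3.

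Tumour 1869 also had the highest signal for Cdkn1a, for the brighter Cdkn1b probe and for Cdkn2a, while for Cdkn1c it lay below both neu tumours. It shared no array with tumours 1868 and 5, so these rankings may also hold differences between arrays. The mean signals of the macrophage and fibroblast lists were highest in tumour 1869 too, though not those of every gene in them. The log2 of the mean signal of 8 macrophage genes was 10.01 and 12.14 in Cdc25a;neu tumours 1868 and 1869, against 10.43 and 10.40 in neu tumours 5 and 6, with Lyz2 at -0.45 in pair 1 and 2.03 in pair 2. That of 9 fibroblast genes was 7.91 and 9.95 in the Cdc25a;neu tumours, against 8.24 and 9.09 in the neu tumours, with Col1a1 at -0.36 in pair 1 and 1.60 in pair 2. The median ratio of the fibroblast list in pair 2 was 0.07, and Dcn at -0.65 and Lum at -0.42 were lower in that pair, with both genes lower in tumour 1869 than in either neu tumour. Of the macrophage genes 0 were higher and 1 was lower on all 4 arrays, and of the fibroblast genes 0 and 3, against 14.7% and 12.4% of measured genes. Endothelial genes were at 7.69 and 8.53 in the Cdc25a;neu tumours, against 7.66 and 8.30 in the neu tumours, and T and NK cell genes at 8.06 and 7.92 in the Cdc25a;neu tumours, against 8.01 and 7.94 in the neu tumours. The part of these cell types in the Cdkn1a, Cdkn1b, Cdkn2a and Cdkn2b values was not tested.

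Cdkn2a was measured by 1 probe, A_51_P144813, and the files do not say whether it detects the p16Ink4a transcript, the p19Arf transcript or both, whose 2 start windows are printed above. Its signal was 16.5 to 71.7 intensity units over background and was well above background in 6 of 8 colour channels, 3 of them Cdc25a;neu and 3 neu. The log2 ratios were 0.10 and -0.19 on the arrays of pair 1. On those of pair 2 they were 0.09 and 0.62. The log2 signal was 6.32 and 6.60 in the Cdc25a;neu tumours, against 6.36 and 6.25 in the neu tumours, and the genotypes overlapped. The mean was 0.15 ± 0.28 (SD, n = 2 pairs), with an adjusted p of 0.740 in limma, and it lay between 0.02 and 0.41 over the alternatives. It was 0.02 without the pair 2 array that had Cdc25a;neu in Cy3, 0.29 without the other array of that pair, 0.08 without the pair 1 array that had Cdc25a;neu in Cy5, 0.25 with an offset of 16 and 0.35 with the scanner's log ratio.

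Polycomb proteins and related factors that act on the Cdkn2a locus were looked at as a list. Of 12 measured genes, 0 were higher and 5 lower on all 4 arrays, against 14.7% and 12.4% of measured genes, with a median log2 ratio of -0.05 and 0 at an adjusted p under 0.05. Cbx7 and Cbx8, which encode subunits of the Polycomb complex PRC1 that recognise methylated histones, had the largest ratios. Cbx7 had -0.50, -0.64, -0.55 and -0.46 on the 4 arrays, with a mean of -0.54 ± 0.05, and Cbx8 averaged -0.43 ± 0.05 with -0.10 on its other probe (SD, n = 2 pairs). Ezh2, the histone methylating subunit of PRC2, was at 0.14 with mixed signs. Bmi1, the subunit best known for holding down Cdkn2a, was at 0.09 ± 0.21, and its other probe at -0.00.

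Signals known to act on transcription of CDK inhibitor genes were measured through 23 genes. Of these 2 were higher and 5 lower on all 4 arrays, against 14.7% and 12.4% of measured genes. Their median was -0.07, with 0 at an adjusted p under 0.05 in limma. Tgfbr2, the receptor for TGF-beta, had -0.94 ± 0.54 (SD, n = 2 pairs) on its brightest probe and was lower on all 4 arrays, but its other probes had 0.07 and 0.10. Id1, an inhibitor of basic helix-loop-helix factors, was higher on all 4 arrays at 0.58 ± 0.28, with 0.47 on its other probe. The ligand gene Tgfb3 was higher on all 4 at 0.44 ± 0.13 and the transcription factor gene Ets2 lower on all 4 at -0.42 ± 0.13.

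Cdkn2c (p18Ink4c), an INK4 inhibitor known to limit growth of luminal mammary cells, was measured by the probe A_51_P513719 at 359 to 1677 intensity units over background. Its log2 ratios were 0.10 and -0.25 on the swapped arrays of pair 1 and -0.14 and -0.15 in pair 2. The log2 signal was 9.95 and 9.81 in Cdc25a;neu tumours 1868 and 1869, against 10.02 and 9.96 in neu tumours 5 and 6. Both Cdc25a;neu tumours lay below both neu tumours, as for 11.3% of all kept probes. For tumour 1868 the margin was narrow, and the swapped arrays of pair 1 had opposite signs. The mean was -0.11 ± 0.05 (SD, n = 2 pairs), with an adjusted p of 0.592 in limma. It was -0.20 without the pair 1 array that had Cdc25a;neu in Cy5, -0.02 without the other array of that pair and -0.06 with median centring.

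Of the 3 measured genes on each side of Cdkn2c, Ttc39a was at -0.42 and lower on all 4 arrays, and Rnf11 was at -0.60 with mixed signs. The other 4 were between -0.01 and 0.13. Beside Cdkn2a and Cdkn2b, 5 of the 6 neighbours, Mtap among them, were between -0.05 and 0.18. The sixth, Caap1, was at 1.43, and 77 other genes lay within 0.25 of it on every array. Chromosome 4 as a whole, which holds Cdkn2a, Cdkn2b and Cdkn2c, had 33.2% of 892 measured genes lower on all 4 arrays and 9.14% higher. The shares of all measured genes were 12.4% and 14.7%. None of the 3 INK4 genes on it was lower on all 4 arrays, and 3 genes are too few to compare with that share.

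Cdkn2d (p19Ink4d), the INK4 inhibitor whose level is known to vary through the cell cycle, was measured by the probe A_51_P122356 at 218 to 633 intensity units over background. Its log2 ratios were 0.30 and 0.66 on the arrays of pair 1. On those of pair 2 they were -0.40 and -0.06. The log2 signal was 8.92 and 8.53 in Cdc25a;neu tumours 1868 and 1869, against 8.44 and 8.75 in neu tumours 5 and 6. The signs of the pairs were opposite to those of Cdkn2b, with tumour 1868 the highest of the 4, and the genotypes overlapped. The mean was 0.13 ± 0.50 (SD, n = 2 pairs), with an adjusted p of 0.874 in limma. It was 0.20 with median centring and 0.21 in the authors' deposited table. Leaving out 1 array at a time gave 0.04 to 0.22, with 0.22 without the pair 1 array and 0.21 without the pair 2 array that had Cdc25a;neu in Cy5, and 0.04 without either of the arrays with Cdc25a;neu in Cy3.

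**Figure D3:**
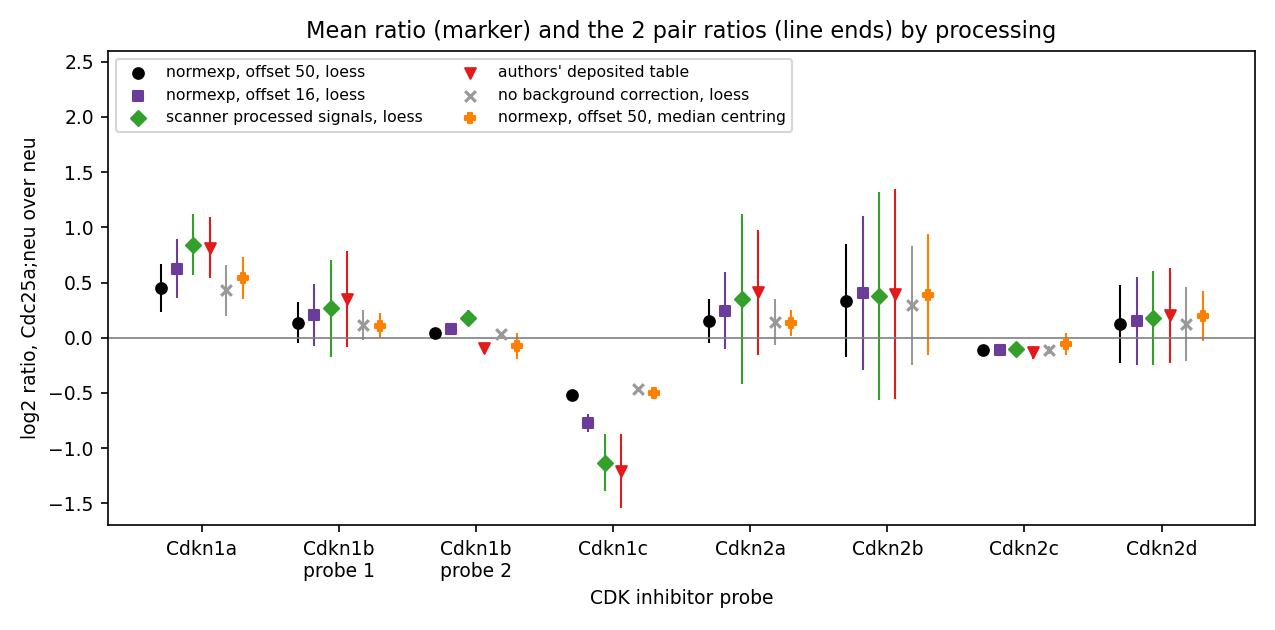
Mean log2 ratio of Cdc25a;neu over neu (markers, y axis) for each CDK inhibitor probe (x axis) under 6 ways of processing, with lines that end at the 2 pair ratios. Cdkn1c is below 0 in both pairs and Cdkn1a above 0 in both under each of the 6, and their means are largest in size at -1.21 for Cdkn1c in the authors' deposited table and 0.84 for Cdkn1a with the scanner's processed signals.

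The partners that the inhibitors bind were the next group. Of 11 measured CDK and cyclin genes, 5 were higher and 0 lower on all 4 arrays, against 14.7% and 12.4% of measured genes, with a median log2 ratio of 0.11 and 0 at an adjusted p under 0.05. The S and G2 phase genes Ccna2 at 0.32 ± 0.24, Cdk1 at 0.27 ± 0.13 and Ccnb1 at 0.22 ± 0.01 were higher on all 4 (SD, n = 2 pairs), though the other Cdk1 probe was at -0.25. Cdk6, an INK4 partner, was at 0.23 ± 0.27, with 0.04 in pair 1 and 0.42 in pair 2, and its other probe at -0.07. Ccnd2 was at 1.31 on its brightest probe and at 0.01 and 0.04 on the others, and at least 10 other genes had ratios within 0.25 of that probe on every array. Cdk4 at 0.05, Ccnd1 at 0.11, Ccnd3 at -0.03, Ccne1 at 0.02, Ccne2 at -0.04 and Cdk2 at -0.15 had mixed signs.

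Downstream of the CDKs, the pocket proteins hold E2F factors inactive until they are phosphorylated. Of 9 measured pocket protein and E2F genes, 0 were higher and 1, E2f5 at -0.14, was lower on all 4 arrays. The shares of all measured genes were 14.7% and 12.4%. The list had a median of -0.06, with 0 at an adjusted p under 0.05 in limma. Rb1 was at -0.65 in pair 1 and 0.20 in pair 2, and Rbl2 at 0.03 in pair 1 and -0.66 in pair 2, so that both had opposite signs in the pairs. Rbl1 was at -0.13 with mixed signs.

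Genes of DNA replication and mitosis were taken as a readout of proliferation. Of 18 measured, 14 were higher and 0 lower on all 4 arrays, against 14.7% and 12.4% of measured genes, with a median log2 ratio of 0.32, against 0.00 over all measured genes. In limma 12 were higher at an unadjusted p under 0.05, against 1282 of 32658 measured genes. At an adjusted p under 0.05 there were 0. The largest ratios were those of the mitotic kinesin gene Kif20a at 0.61 ± 0.08, of Ccnb2 at 0.56 ± 0.23, of the primase gene Prim1 at 0.50 ± 0.03 and of the replication helicase gene Mcm7 at 0.46 ± 0.05 (SD, n = 2 pairs). The list was higher in both pairs, at medians of 0.42 and 0.27, while the CDK inhibitor genes had medians of -0.05 and 0.32.

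**Figure D4:**
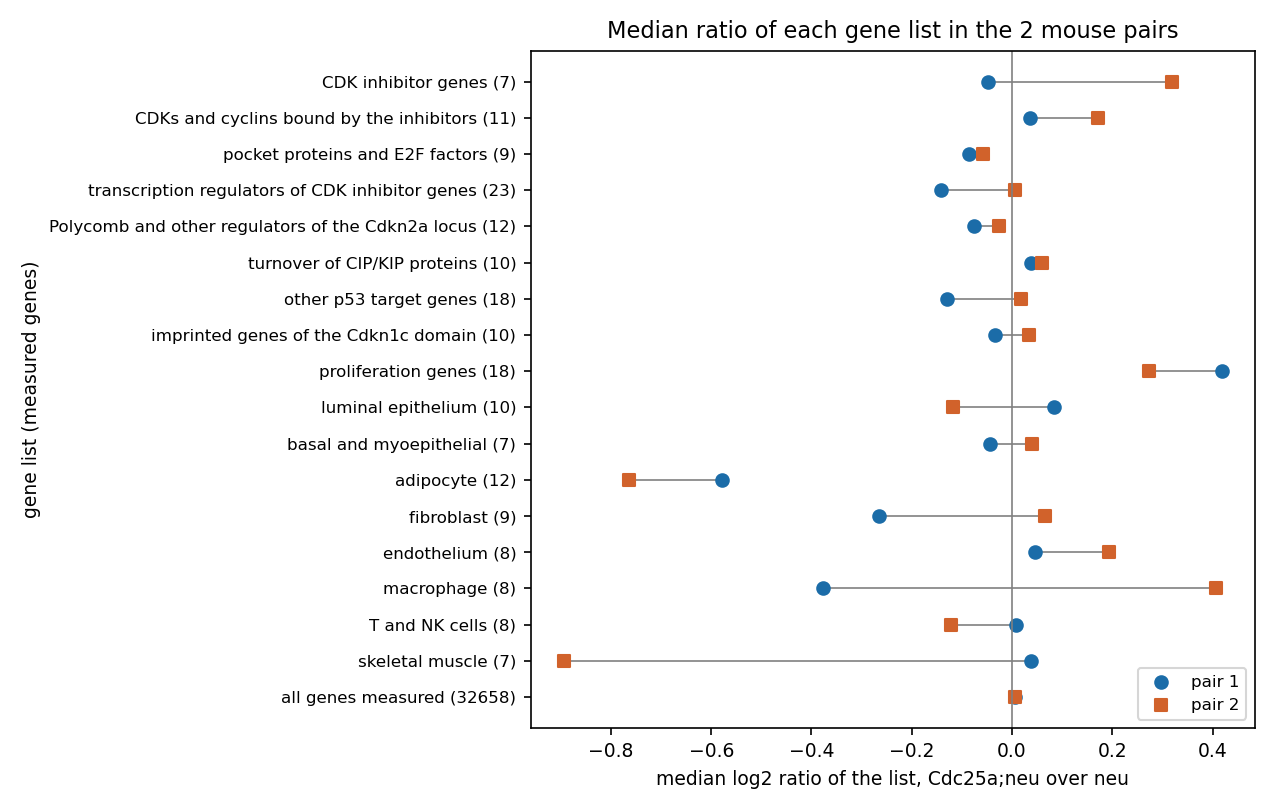
Median log2 ratio of Cdc25a;neu over neu (x axis) for each gene list (y axis, number of measured genes in brackets) in pair 1 (circles) and pair 2 (squares). The proliferation list lies at 0.42 and 0.27 and the adipocyte list at -0.58 and -0.76, while the CDK inhibitor genes lie at -0.05 in pair 1 and 0.32 in pair 2.

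Likeness of pattern was measured as the root mean square difference of log2 ratio over the 4 arrays, among 15224 named genes. The nearest to Cdkn1c were Prpf38a, Mrto4 and Klhl21, the first at 0.0243 and all on chromosome 4, and 27 genes lay within 0.1 of it. The nearest to Cdkn1a were Ankrd36, Skap2 and Mns1, with 1 gene within 0.1, and those to Cdkn1b were Mylk, Isg20 and Bri3, with 119. Cdkn2b was nearest to Glycam1, Cd248 and Efna5, with 4 genes within 0.1, and Cdkn2a to Uckl1, Scara3 and Plxdc1, with 0. Cdkn2c was nearest to Wdr92, Olfr45 and Egflam, with 459 genes within 0.1, and Cdkn2d to Cd59a, Etfb and Mtss1, with 3. These are descriptions over 2 pairs of mice, and many genes share a flat pattern such as that of Cdkn2c.

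No other CDK inhibitor name had a ratio of 1 sign on all 4 arrays. Cdkn2aip, which encodes a partner of p19Arf, was at 0.24 in pair 1 and -0.56 in pair 2, and Cdk2ap1, a CDK2-associated protein, at 0.06 in pair 1 and -0.21 in pair 2. Cdkn3, a phosphatase that acts on CDK2, had no kept probe.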

How the data were processed

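RNA of 4 tumours was measured on 4 arrays as 2 dye-swapped mouse pairs. The deposited files of the scanner give, per the file headers, intensity values of each spot (mean signal and local background in both colours), processed signals, and the log10 ratio of red to green. The submitters' processing notes name Agilent Feature Extraction 7.2 and the headers 7.5.1. The authors' deposited table holds natural log ratios of red over green, as found from slopes of 2.27 to 2.30 on the scanner's log10 ratio, for which natural logarithms give 2.30, with r from 0.940 to 0.980. Its column medians were 0.0007 to 0.0209, and its normalization and centring are not stated in those sources. It was turned to log2 and used as an alternative.

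From the deposited intensity values, log2 ratios were computed with limma 3.58.1 in R 4.3.3, by normexp background correction with an offset of 50 and loess within each array. Control spots and outlier flags were left out, spots of a probe were averaged, and each array was turned to Cdc25a;neu over neu. The 2 arrays of a pair were averaged. The mean of the 2 pair ratios was tested against 0 with lmFit and eBayes, two-sided, adjusted over 37174 probes. Signals per tumour came from Aquantile normalization after loess. No member spot was saturated or flagged. With 1 array per slide, no slide effect could be tested.

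Probes were named through accessions, symbols or synonyms of the RefSeq table for GRCm38.p6, and 20322 of 41174 kept the array's own name. The brightest kept probe stood for a gene in lists. Of each list the 4 genes with the largest mean ratio in size are named, and all CDKs and cyclins, except 1 gene that is not reported here. The members and lists were chosen with earlier results of these data known. The same mice stand in each pair on both arrays, so the pair number pairs the samples by design, and the turned ratios of the swapped arrays correlated with r = 0.643 in pair 1. The alternatives tried were other background corrections and normalizations, other dim-probe filters, other models, 1 probe per gene and leaving out each array.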

Additional observations from a re-analysis of the deposited data

How the results depend on the processing

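The other filters, the other models and the use of 1 probe per gene leave the ratio of a probe as it is, so no sign could turn there. Under the other background corrections and normalizations, and with each array left out, no sign turned for the brightest probe of any of the 7 genes. None of the genes passed the test under any alternative except as follows. With median centring, 1109 of 37174 probes of the whole array were called, among them 2 of the 8 CDK inhibitor probes. These were Cdkn1a at 0.54 (limma adjusted p 0.0207) and Cdkn1c at -0.50 (limma adjusted p 0.0442). With the 4 arrays in 1 fit and the pair as a random block, 950 of 37033 probes were called. Among them was 1 of the 8 CDK inhibitor probes, Cdkn1c at -0.52 (limma adjusted p 0.0257). The estimated correlation of the 2 arrays of a pair was -0.00897 there, so the repeat hybridisations counted almost as separate samples. The count of CDK inhibitor probes of 1 sign on all arrays was 2 in the main values. It was 2 to 5 when 1 array was left out, with 5 without the pair 1 array that had Cdc25a;neu in Cy5. Fewer arrays have to share a sign then, which raises such a count for any probes. The share over all kept probes was not computed for that case, so these counts are not a result about the inhibitors. Leaving out 1 array at a time called 0 probes of the array and 0 CDK inhibitor probes. It gave log2 ratios of 0.36 to 0.54 for Cdkn1a, 0.09 to 0.18 for Cdkn1b, -0.61 to -0.42 for Cdkn1c, 0.02 to 0.29 for Cdkn2a, 0.26 to 0.42 for Cdkn2b, -0.20 to -0.02 for Cdkn2c and 0.04 to 0.22 for Cdkn2d. With signals per tumour in place of ratios, the fit with the mouse pair as a replicate block called 0 probes and gave Cdkn1c an adjusted p of 0.453 in limma, and the fit with no replicate block gave 1.00. The fit with the replicate block is the main test in another form, so it could not change a call and is no separate check. The fit with no replicate block called 0 probes. A filter that asked for both colours to be well above background on all 4 arrays left out Cdkn2a and the second Cdkn1b probe, so they have no value there. The cause of these differences was not tested. Signal over background limits the sizes given for Cdkn1a, Cdkn1b, Cdkn1c, Cdkn2a and Cdkn2b.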

Other observations

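Of the 27 genes within 0.1 of Cdkn1c in pattern, 13 lay on chromosome 4, which holds 5.82% of the 15224 named genes compared, while Cdkn1c itself lies on chromosome 7. Of the 459 genes within 0.1 of Cdkn2c, which is on chromosome 4, 21 lay on that chromosome. Erbb2, the gene of which neu is the rat form, had log2 ratios of 0.42, 0.48, 0.76 and 0.93 on the 4 arrays, with a mean of 0.65 and an adjusted p of 0.504 in limma. Whether its 1 kept probe detects the rat neu transgene, mouse Erbb2 or both is not known, so this ratio does not measure the transgene. Basal and myoepithelial genes, another mammary cell layer, had a median log2 ratio of 0.07. Of the 7 measured, 1 was higher and 0 were lower on all 4 arrays, against 14.7% and 12.4% of measured genes. The largest difference between pairs among them was that of Acta2, at -0.13 in pair 1 and 0.79 in pair 2.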
